A study of Mus musculus with 7 samples.

Results

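The macrophage content of the embryonic outflow tract (OFT) was read from 10 marker genes, *Csf1r*, *Cx3cr1*, *C1qa*, *C1qb*, *C1qc*, *Mrc1*, *Adgre1*, *Tyrobp*, *Spi1* and *Aif1*, chosen by name from the 14732 genes listed. All 10 were listed, each on 1 row. RNA was sequenced from pools of OFTs, the vessel that links the embryonic ventricles to the aortic sac, taken from mouse embryos at embryonic day 11.5. There were 3 pools of wild-type control embryos (replicates 3, 4 and 5) and 4 pools of Gata6STOP/+ embryos (replicates 1, 3, 4 and 5), which carried a CRISPR-Cas9-made premature stop in 1 copy of *Gata6* in every cell, in a line from a single founder backcrossed to C57BL/6. Each pool was described as 4 pairs of OFTs, no treatment was given, and the labels do not say which embryos or litters shared a pool. Values are CPM, the reads of a gene scaled to a common library size after TMM (trimmed mean of M values) adjustment.

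Macrophages reach the early heart from the yolk sac and later from the fetal liver. Their survival depends on the CSF1 receptor encoded by *Csf1r*, and the transcription factor PU.1, encoded by *Spi1*, sets up the myeloid programme. Tissue macrophages are the main makers of C1q, the molecule that starts the classical complement pathway, and they clear dying cells, of which a remodelling OFT has many. The OFT itself is mostly myocardium, endocardium and cushion mesenchyme, so in bulk RNA the macrophage genes are a small admixture. In such RNA, fewer macrophages and less RNA per macrophage cannot be told apart.

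The sequence before the start site is shown for the genes in which GGAAGT was found, the core letters shared by sites of the ETS family, which includes PU.1. Any part of PU.1 in the differences between pools was not tested. RefSeq windows (GRCm38.p6, 250 bases before to 50 bases after the start) were read for 5 of the 10 genes, namely *Aif1*, *C1qb*, *C1qc*, *Cx3cr1* and *Mrc1*. No window was read for *Csf1r*, *C1qa*, *Adgre1*, *Tyrobp* and *Spi1*, so the letters were not searched in these genes. The letters GGAAGT, searched on both strands (ACTTCC on the other), occur in 3 of the 5 windows, against 23.8% of 32851 mouse promoter windows of the same length. The longer letters GAGGAAGT (ACTTCCTC on the other strand), searched for as a PU.1 site, contain GGAAGT. They occur in *C1qc* alone, against 3.20% of all windows. The 250 bases before the start are given 5′ to 3′ on the gene's own strand, with the match in capitals.
C1qb, chr4:136886201-136886450, minus strand: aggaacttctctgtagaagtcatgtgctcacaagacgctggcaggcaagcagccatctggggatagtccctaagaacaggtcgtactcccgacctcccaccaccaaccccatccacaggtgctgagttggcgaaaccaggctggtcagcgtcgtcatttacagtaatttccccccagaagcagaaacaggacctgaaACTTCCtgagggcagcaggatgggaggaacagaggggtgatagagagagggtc
C1qc, chr4:136892915-136893164, minus strand: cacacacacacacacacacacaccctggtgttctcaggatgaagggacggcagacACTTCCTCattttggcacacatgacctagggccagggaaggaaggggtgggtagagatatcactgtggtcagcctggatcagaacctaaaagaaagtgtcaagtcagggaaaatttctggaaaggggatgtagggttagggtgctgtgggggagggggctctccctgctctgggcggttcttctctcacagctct
Mrc1, chr2:14229164-14229413, plus strand: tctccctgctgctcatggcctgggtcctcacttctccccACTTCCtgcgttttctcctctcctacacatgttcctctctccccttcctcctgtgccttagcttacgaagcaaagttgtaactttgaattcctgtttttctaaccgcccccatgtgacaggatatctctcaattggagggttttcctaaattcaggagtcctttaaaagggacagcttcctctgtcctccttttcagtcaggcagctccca
The match begins at position −53 from the RefSeq start in *C1qb*, −195 in *C1qc* and −211 in *Mrc1*. In *C1qc* and *Mrc1* the GENCODE gene position given below begins inside the printed window, so these distances hold for the RefSeq start only. A match of letters is a description of the window and not a mapped binding site.

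Depth was 17783655 to 34467710 reads on listed genes per pool, and the 10 genes together held 1399 to 3411 of them, or 0.0050% to 0.0124% of listed reads. *Gata6*, the targeted gene, had 203 to 268 CPM in the 4 Gata6STOP/+ pools and 257 to 315 CPM in the control pools, so the groups overlapped. The Gata6STOP/+ mean was 79.2% of control (log2 fold change −0.34, limma adjusted *P*=0.389). Genes that define the tissue were abundant, with 8 cardiomyocyte genes, among them *Myh7*, *Actc1* and *Ttn*, summing to 17162 CPM or more in every pool. Of 7 lymphocyte genes picked by hand, 0 were listed. Listed genes are those that passed the authors' CPM filter, so this does not show that lymphocyte RNA was absent.

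The 10 macrophage genes varied together from pool to pool, and the genotypes overlapped for each of them. Their summed level was highest in Gata6STOP/+ replicate 3, at 124 CPM, and lowest in Gata6STOP/+ replicate 5, at 50.5 CPM, a 2.45-fold range within the same genotype. The other Gata6STOP/+ pools had 70.7 CPM in replicate 1 and 58.8 CPM in replicate 4. The control pools had 67.1, 75.2 and 96.0 CPM in replicates 3, 4 and 5, all inside the Gata6STOP/+ range. The mean was 79.4 ± 14.9 CPM in control (SD, n=3) and 75.9 ± 32.9 CPM in Gata6STOP/+ pools (SD, n=4), or 95.6% of control. Without Gata6STOP/+ replicate 3 it was 59.99 ± 10.1 CPM (SD, n=3), or 75.5% of control.

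**Figure D1:**
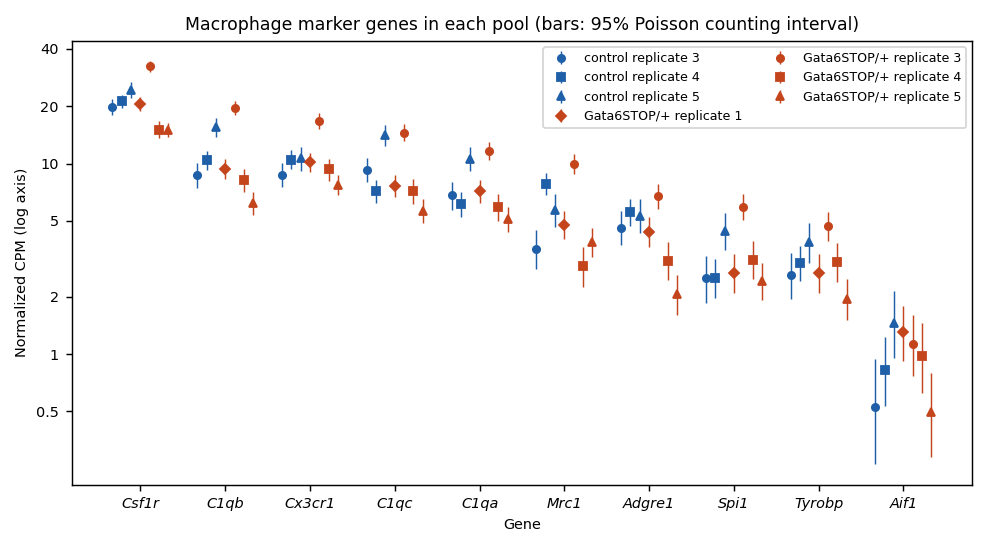
Normalized CPM (log axis) of the 10 macrophage marker genes in each of the 3 control (blue) and 4 Gata6STOP/+ (red) pools; points are pools and bars are 95% Poisson intervals of the reads, which cover counting error only. Gata6STOP/+ replicate 3 (red circle) is highest for every gene but *Aif1*, and the genotypes overlap for all 10.

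The receptors were described first. *Csf1r*, the receptor through which CSF1 and IL-34 keep macrophages alive, lies on chromosome 18 (61100598 to 61132149, plus strand, GRCm38, GENCODE M21) and had the highest CPM of the 10 genes. It had 19.9, 21.3 and 24.4 CPM in control replicates 3, 4 and 5, and 20.6, 32.4, 15.1 and 15.0 CPM in Gata6STOP/+ replicates 1, 3, 4 and 5. The Gata6STOP/+ pools thus stood on both sides of the control range. The means were 21.9 ± 2.33 CPM (SD, n=3) and 20.8 ± 8.19 CPM (SD, n=4), with a log2 fold change of −0.14 (95% interval −0.63 to 0.35, limma adjusted *P*=0.905). *Cx3cr1*, the fractalkine receptor of macrophages and microglia, lies on chromosome 9 (119901616 to 120069879, minus strand). It had 8.73, 10.5 and 10.6 CPM in control pools and 10.1, 16.8, 9.32 and 7.70 CPM in Gata6STOP/+ pools. Replicate 3 alone was above the controls and replicate 5 alone below them. Its log2 fold change was 0.08 (95% interval −0.38 to 0.55, limma adjusted *P*=0.945).

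The C1q genes encode the 3 chains of a single secreted molecule and lie next to each other on the minus strand of chromosome 4, *C1qb* at 136880129 to 136886187, *C1qc* at 136889804 to 136893065 and *C1qa* at 136895917 to 136898803. *C1qb* had 8.68, 10.4 and 15.5 CPM in control and 9.37, 19.6, 8.18 and 6.19 CPM in Gata6STOP/+ pools. *C1qa* had 6.81, 6.14 and 10.6 CPM in control and 7.19, 11.7, 5.90 and 5.12 CPM in Gata6STOP/+ pools. *C1qc* had 9.25, 7.14 and 14.1 CPM in control and 7.65, 14.6, 7.16 and 5.67 CPM in Gata6STOP/+ pools. In all 3 genes Gata6STOP/+ replicate 3 was highest, control replicate 5 second and Gata6STOP/+ replicate 5 lowest. The log2 fold changes between genotypes were −0.17, −0.09 and −0.24 for *C1qb*, *C1qa* and *C1qc*, with limma adjusted *P*-values of 0.917, 0.948 and 0.872. The 95% intervals ran from −0.88 to 0.53, −0.66 to 0.47 and −0.87 to 0.40. Per kilobase of exon, *C1qb* made up 41.3% to 49.8% of the 3 chains in each pool, *C1qa* 30.5% to 36.3% and *C1qc* 19.3% to 24.8%. On that scale the order of the chains was the same in all 7 pools. It rests on the annotated exon lengths (1.04 kb for *C1qa*, 1.931 kb for *C1qc*). In CPM without them, *C1qc* was above *C1qa* in all 7 pools.

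*Spi1* (chromosome 2, 91082390 to 91115756, plus strand) encodes PU.1. It had 2.49, 2.52 and 4.42 CPM in control and 2.67, 5.94, 3.13 and 2.41 CPM in Gata6STOP/+ pools, again highest in Gata6STOP/+ replicate 3 and second in control replicate 5. Its log2 fold change was 0.11 (95% interval −0.50 to 0.73, limma adjusted *P*=0.943). *Tyrobp* (chromosome 7, 30413760 to 30417585, plus strand), the adaptor DAP12 that signals for TREM2, had 2.59, 3.002 and 3.86 CPM in control and 2.67, 4.71, 3.05 and 1.95 CPM in Gata6STOP/+ pools. The same 2 pools were at the top, and the log2 fold change was −0.06 (95% interval −0.59 to 0.47, limma adjusted *P*=0.964). *Aif1* (chromosome 17, 35170991 to 35176068, minus strand), the actin-bundling protein IBA1, was the lowest of the 10, with 11 to 37 reads a pool. It had 0.527, 0.828 and 1.46 CPM in control and 1.30, 1.12, 0.976 and 0.494 CPM in Gata6STOP/+ pools, and was the single gene with its highest value outside Gata6STOP/+ replicate 3. Its log2 fold change was 0.05 (95% interval −0.57 to 0.68, limma adjusted *P*=0.979).

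*Adgre1* (chromosome 17, 57358691 to 57483527, plus strand) encodes F4/80, the classical surface marker of mouse macrophages. It had 4.60, 5.56 and 5.32 CPM in control and 4.38, 6.74, 3.09 and 2.06 CPM in Gata6STOP/+ pools, so 3 of the 4 Gata6STOP/+ pools were below all controls and the other was above them. Its log2 fold change of −0.41 was the largest in size among the 10 genes (95% interval −1.04 to 0.22, limma adjusted *P*=0.765). *Mrc1* (chromosome 2, 14229392 to 14332057, plus strand) encodes the mannose receptor CD206, found on resident macrophages and on some endothelium. It had 3.55, 7.83 and 5.71 CPM in control and 4.77, 9.96, 2.89 and 3.87 CPM in Gata6STOP/+ pools. Here control replicate 4, not replicate 5, was second highest, and the log2 fold change was −0.15 (95% interval −0.92 to 0.61, limma adjusted *P*=0.937).

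**Figure D2:**
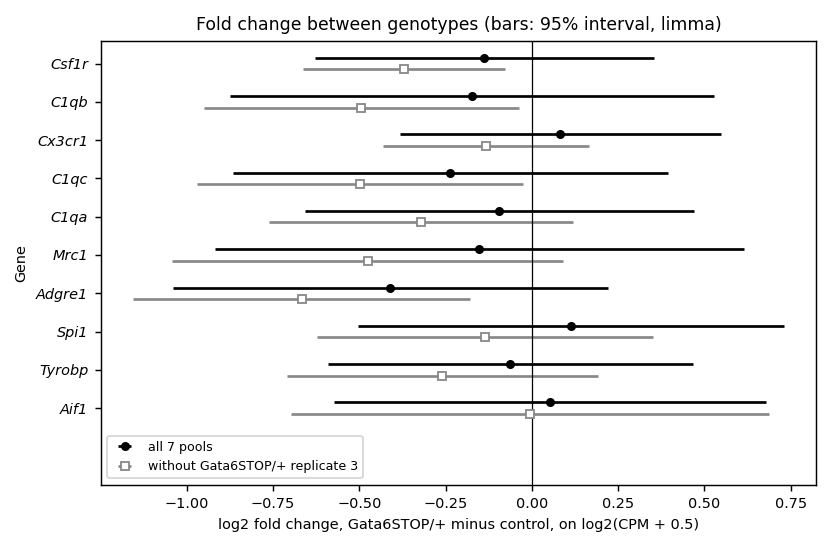
Log2 fold change (Gata6STOP/+ minus control, on log2(CPM + 0.5)) of each marker gene with its 95% limma interval, over all 7 pools (filled circles) and without Gata6STOP/+ replicate 3 (open squares). With all pools every interval spans 0, and without that pool all 10 estimates are negative.

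Between genotypes, 7 of the 10 genes were lower and 3 higher in the Gata6STOP/+ mean, with a median log2 fold change of −0.12 against −0.0007 over all genes. Limma called 0 of the 10 at an adjusted *P* of 0.05, as it called 0% of the whole table. At an unadjusted *P* of 0.05 it passed 0 of the 10, against 8.06% of all genes. In 0 of the 10 were the groups free of overlap, against 8.47% of all genes. EdgeR's quasi-likelihood test, its likelihood ratio test and DESeq2 on the recovered reads also called 0 of the 10. Over the whole table of 14732 genes these tests called only 0, 105 and 88. The intervals leave room for a fall or a rise of moderate size in each gene. The values do not show that the genotypes were alike.

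The values depended on which pool was left out. Without Gata6STOP/+ replicate 3 all 10 log2 fold changes were negative, with a median of −0.35. An unadjusted *P* of 0.05 was then passed by 4 genes, *Csf1r* (−0.37), *C1qb* (−0.49), *C1qc* (−0.50) and *Adgre1* (−0.67), against 4.16% of all genes passing it in that direction. The lowest limma adjusted *P* among the 10 was 0.412, for *Adgre1*, so none was called. *Adgre1* alone had all remaining Gata6STOP/+ pools below all controls (at most 4.38 against at least 4.60 CPM), as had 7.36% of all genes. Leaving out the highest pool of a group lowers that group by construction, and no label sets this pool apart. Without control replicate 5 the median was 0.06, and without Gata6STOP/+ replicate 5 it was 0.04.

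The pool-to-pool pattern was larger than counting error. Gata6STOP/+ replicate 3 was highest in 9 of the 10 genes, while 15.5% of all genes had their highest value there. Control replicate 5 was second in 7, and Gata6STOP/+ replicate 5 was lowest in 9, against 10.6% of all genes for the lowest value there. As a percentage of each gene's own mean, the median over the 10 genes was 154% in Gata6STOP/+ replicate 3, 128% in control replicate 5 and 64.7% in Gata6STOP/+ replicate 5. The coefficient of variation (CV) over the 7 pools was 27.9% to 46.4%, with a median of 36.2%. Counting error alone would give 4.34% (*Csf1r*) to 20.4% (*Aif1*). For comparison, the median CV was 15.2% among 6492 genes in the same range of mean CPM.

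**Figure D3:**
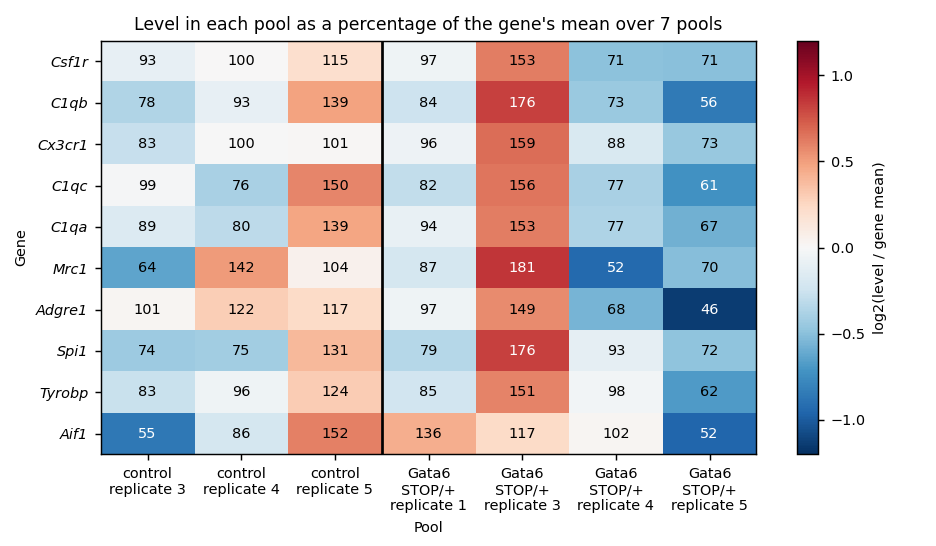
Level of each marker gene (rows) in each pool (columns) as a percentage of that gene's mean over the 7 pools, with colour on the log2 scale and the black line parting control from Gata6STOP/+ pools. The column of Gata6STOP/+ replicate 3 is above 100 for all 10 genes and that of Gata6STOP/+ replicate 5 below 100 for all 10.

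Between pairs of the 10 genes, Pearson's r of log2(CPM + 0.5) over the 7 pools was above 0 in all 45 pairs, with a median of 0.827 and a range of 0.392 to 0.975. The lowest values involved *Aif1*, the gene with the fewest reads. Without Gata6STOP/+ replicate 3 the median was 0.740 and all 45 stayed above 0. All points share the libraries and their scaling, and these correlations are descriptive.

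The makeup of the macrophage RNA varied less than its amount. *Csf1r* took 25.4% to 29.8% of the summed CPM of the 10 genes in each pool, a CV of 6.82% for its share against 28.1% for its CPM. As the largest part of that sum, its share is steadied in part by construction. *C1qb* took 12.3% to 16.2%, *Cx3cr1* 11.1% to 15.8% and *C1qa* 8.17% to 11.03%. The most variable shares were those of *Aif1* (0.786% to 1.84%) and *Mrc1* (4.91% to 10.4%, highest in control replicate 4). Their CVs were 32.7% and 27.1% for the share, against 38.3% and 46.4% for the CPM. *Adgre1* had a share of 6.60 ± 0.951% in control (SD, n=3) and 5.25 ± 0.876% in Gata6STOP/+ pools (SD, n=4). *Cx3cr1* went the other way, with 12.7 ± 1.46% and 14.8 ± 1.002%, and in both genes the pools overlapped between genotypes.

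**Figure D4:**
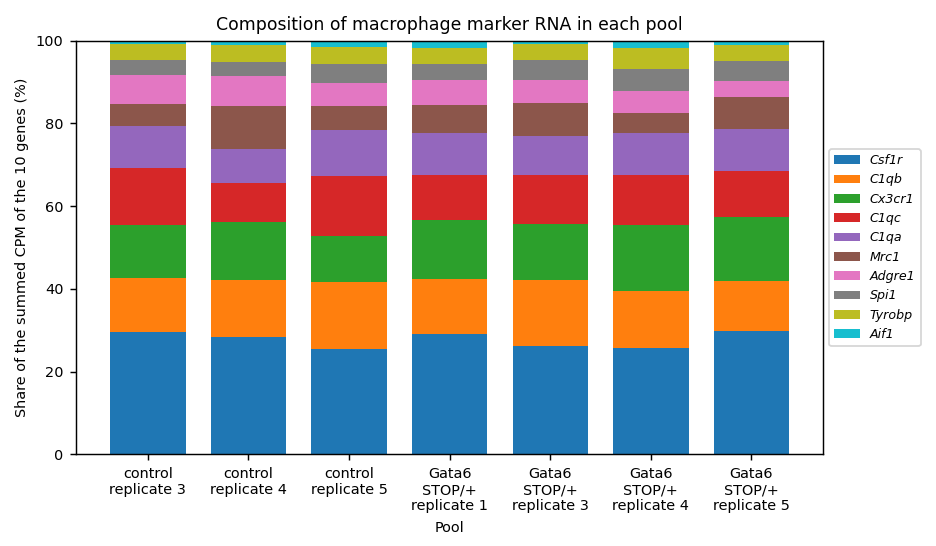
Share of each marker gene in the summed CPM of the 10 genes (%), 1 bar per pool. *Csf1r* at the base holds 25.4% to 29.8% in every pool, although the sum itself runs from 50.5 to 124 CPM.

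To rank levels between genes, CPM was divided by the kilobases of annotated exon. The CPM and the shares of summed CPM given above are not corrected for exon length. On that scale *C1qb* was highest, with a mean of 10.2 CPM per kb, followed by *C1qa* (7.34), *C1qc* (4.85), *Tyrobp* (4.68), *Csf1r* (3.68), *Cx3cr1* (2.34), *Adgre1* (1.40), *Spi1* (1.25), *Mrc1* (0.865) and *Aif1* (0.625). *C1qc* and *Tyrobp* were too close to rank, given a CV over pools of 37.9% and 29.2%. The same held for neighbours in the order among *Adgre1*, *Spi1*, *Mrc1* and *Aif1*, with CVs of 34.5%, 39.6%, 46.4% and 38.3%. The most abundant, *C1qb*, stood at the 66.7th percentile of all listed genes per kb and *Aif1* at the 9.7th.

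Other genes of the lineage and of other cell types were read from lists written by hand. Of their 107 listed genes limma called 0, as it called 0% of all genes. At an unadjusted *P* of 0.05 limma passed 12 of the 107, against 8.06% of all genes. Both edgeR tests called 0 of the 107, and over all 14732 genes quasi-likelihood called 0 and the likelihood ratio test 105. DESeq2 called 1, the mesenchymal receptor gene *Pdgfra* (limma adjusted *P*=0.354), and 88 over the whole table. Of 34 further macrophage genes 26 were listed, and 15 of these were highest in Gata6STOP/+ replicate 3. The list summed to 423 CPM in Gata6STOP/+ replicate 3 and to 362 to 400 CPM in the other pools. Its most abundant genes varied less than the markers did, and not all were highest in that pool. *Lgmn*, a lysosomal protease, had 115 to 138 CPM over the 7 pools, highest in Gata6STOP/+ replicate 3. *Stab1*, a scavenger receptor also made by endothelium, had 74.5 to 108 CPM, highest in control replicate 4. *Cd14*, *Cd163*, *Timd4*, *Folr2*, *Ms4a7*, *Siglec1*, *Gpr34* and *Ccr2* were not among the listed genes. Of the pan-leukocyte genes, 10 of 11 were highest in Gata6STOP/+ replicate 3, including *Lcp1* (40.2 CPM there, 21.4 to 34.8 CPM elsewhere) and *Laptm5* (22.2 CPM there, 12.8 to 16.5 CPM elsewhere), but not *Arhgdib*.

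The ligands and partners of the receptors were followed in the same way. *Csf1*, the ligand of CSF1R, had 31.4 CPM on average over the pools. It had 29.0, 26.1 and 30.0 CPM in control and 32.2, 36.6, 30.2 and 35.9 CPM in Gata6STOP/+ pools. The groups did not overlap, as was the case for 8.47% of all genes. Its log2 fold change was 0.24 with a limma adjusted *P* of 0.517, so it was not called. *Cx3cl1*, the ligand of CX3CR1, had a mean of 10.6 CPM in control and 10.5 CPM in Gata6STOP/+ pools, and *Il34* was not listed. *Trem2*, whose receptor signals through *Tyrobp*, was highest in Gata6STOP/+ replicate 3 at 4.24 CPM, against 1.42 to 2.58 CPM in the other pools. *Syk* and *Plcg2*, which act further downstream in many cell types, were highest in control replicate 4. Of the complement genes beyond C1q, 5 of 9 were listed, with *Cd55*, *Serping1* and *Cd59a*, which restrain complement, at 19.4 to 42.5 CPM on average. Of the myeloid transcription factors, 11 of 12 were listed and 6 were highest in Gata6STOP/+ replicate 3, among them *Maf* (26.3 CPM) and *Irf5* (25.5 CPM) but not *Zeb2*.

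Markers of other cell types also differed between pools, and their part in the macrophage result was not tested. Erythroid genes, led by *Hbb-y*, *Hba-x* and *Hba-a1*, summed to 2558 to 6138 CPM in control and 2962 to 7835 CPM in Gata6STOP/+ pools, with the highest sum in Gata6STOP/+ replicate 5, where the macrophage sum was lowest. The second-highest erythroid sum, 6138 CPM, was in control replicate 5, which was also second in the macrophage sum. Endothelial genes (*Tek*, *Cdh5*, *Eng* and others) summed to 916 to 1198 CPM in control and 987 to 1211 CPM in Gata6STOP/+ pools. Of these 10 genes, 0 were highest in Gata6STOP/+ replicate 3, whose sum was the lowest of the Gata6STOP/+ pools. The cardiomyocyte sum was highest in Gata6STOP/+ replicate 3, the pool of the macrophage peak, at 24220 CPM, and was 17162 to 23486 CPM in the other pools, lowest in Gata6STOP/+ replicate 1. Outflow mesenchyme genes (*Acta2*, *Col1a1*, *Postn* and others) summed to 3792 to 4527 CPM over the pools, with 3966 CPM in Gata6STOP/+ replicate 3, the lowest of the Gata6STOP/+ pools. Of 8 megakaryocyte and platelet genes 7 were listed, and *Itga2b*, *Ppbp* and *Gp1ba* were all highest in Gata6STOP/+ replicate 1. Of 8 neutrophil genes only *Mpo* (0.767 to 4.14 CPM) and *Csf3r* (0.930 to 1.63 CPM) were listed, and of 7 mast cell genes only *Gata2* and *Kit*, which other cells also express and whose sum was lowest in Gata6STOP/+ replicate 3, at 34.4 CPM.

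**Figure D5:**
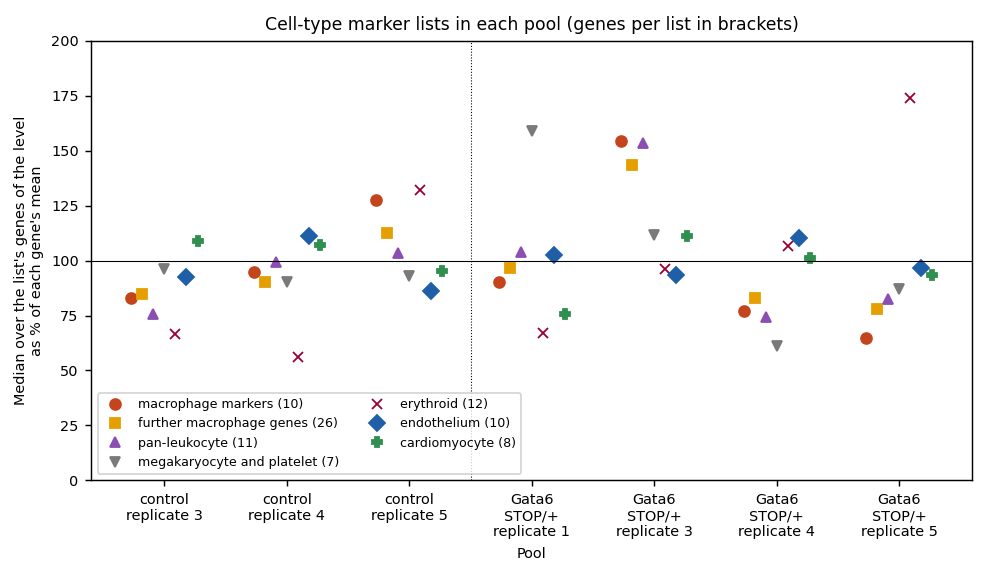
Median over the genes of each cell-type list of the level as a percentage of the gene's mean, per pool; symbols are lists, with the number of genes in brackets, and the dotted line parts control from Gata6STOP/+ pools. In Gata6STOP/+ replicate 3 the macrophage markers are at 154%, with the further macrophage and pan-leukocyte lists near them, while the erythroid list peaks in Gata6STOP/+ replicate 5.

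The genes most like the macrophage markers were found among 14498 others with a mean of at least 1 CPM, by Pearson's r over the 7 pools with the mean z-score of the 10 genes. They were *Hpgds* (0.985), *Msr1* (0.977), *Bin3* (0.976), *Polr2h* (0.962), *Fcgr3* (0.960), *Clec7a* (0.956), *Cwc15* (0.955), *Bcl10* (0.955), *Ifi207* (0.951) and *Pyurf* (0.949). *Msr1*, a scavenger receptor of macrophages, had 10.1 CPM in Gata6STOP/+ replicate 3 and 1.77 to 6.10 CPM elsewhere. *Hpgds*, which makes prostaglandin D2, had 3.48 CPM there and 1.19 to 2.63 CPM elsewhere, and *Fcgr3*, an Fc receptor, had 7.32 CPM there and 2.56 to 5.71 CPM elsewhere. *Cwc15*, a splicing factor, followed the same order over a far smaller range, 60.7 to 70.2 CPM. With 7 pools and so many genes compared, values of this size describe these libraries only.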

How the data were processed

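RNA from pooled OFTs was sequenced as stranded poly(A) libraries with 60 bp single-end reads. The authors trimmed reads with Cutadapt, counted them per gene with RSEM on GRCm38 with Ensembl genes (release not given in the sources used here), required 1 CPM or more in 3 or more samples and deposited TMM-normalized CPM values. All 7 per-sample columns were used. Series text gives 3 pools per genotype, whereas the labels give 3 control and 4 Gata6STOP/+ pools. The labels do not say whether the pools came from separate litters, so *P*-values measure the spread between these pools.

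Genes were tested with limma 3.58.1 (R 4.3.3, trended eBayes, two-sided, no covariate) on log2(CPM + 0.5) over 14732 genes with Benjamini-Hochberg adjustment at 0.05. Fold changes on that scale understate changes of low genes. Reads, recovered from the CPM steps (100% of values whole within 0.01 read), went into edgeR 4.0.16 and DESeq2 1.42.0 as alternatives. The limma, edgeR and DESeq2 fits were tested on simulated reads. Intervals on reads are 95% Poisson and cover counting error only. Positions are from GENCODE M21.

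Named were the 10 markers, *Gata6*, of each other list the 3 genes with the highest mean CPM (all in lists of up to 6 genes) and any called, and the 10 genes most like the markers. A gene that the rule names is not reported here. The markers and lists were chosen with earlier results of these data known. Alternatives were other constants (0.1 and 2), a mean of at least 5 CPM, median-of-ratios scaling, the replicate number as a block, count tests and leaving out each pool.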

Additional observations from a re-analysis of the deposited data

How the results depend on the processing

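None of the 10 markers passed the threshold under any of 16 alternatives, and their lowest limma adjusted *P* was 0.412. Of 156 marker fold changes under alternatives, 137 kept their direction and 19 turned, 17 of them with 1 pool left out. The other 2 were *Aif1*, at −0.0546 with the replicate block in limma and −0.0875 with the block in edgeR's likelihood ratio test. By gene, the lowest and highest log2 fold changes with 1 pool left out were −0.37 and −0.01 for *Csf1r*, −0.32 and 0.13 for *C1qa*, −0.49 and 0.052 for *C1qb*, −0.50 and 0.015 for *C1qc*, −0.48 and 0.092 for *Mrc1*, −0.67 and −0.17 for *Adgre1*, −0.26 and 0.10 for *Tyrobp*, −0.14 and 0.35 for *Spi1*, −0.16 and 0.30 for *Aif1*, and −0.13 and 0.23 for *Cx3cr1*. The markers' median log2 fold change ran from −0.346 (without Gata6STOP/+ replicate 3) to 0.063 (without control replicate 5), and the difference of summed CPM from −19.4 to 4.93 around −3.53. Limma called 0 genes of all 14732, 1 with a constant of 0.1, 14 with the replicate block, 105 by edgeR's likelihood ratio test, 118 by that test with the block and 88 by DESeq2. The edgeR quasi-likelihood test called 0 (1177 at an unadjusted *P* of 0.05). With 1 pool left out limma called 0 to 13, the 13 without control replicate 4. The cause was not tested. Same-numbered pools did not deviate together (r of −0.008, −0.118 and −0.002), so the numbers were not taken as pairs, and the block, under which Gata6STOP/+ replicate 1 has no partner and adds nothing to the fold change, left all 10 markers uncalled. Depth limits *Aif1*, with 11 reads in its lowest pool.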
